A study of Mus musculus with 6 samples.

Results

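A set of 10 transcription factor genes that steer activated CD8 T cells toward effector or memory fates was compared between 2 kinds of cultured mouse T cell: Tcf7, Lef1, Bach2, Id2, Id3, Klf2, Foxo1, Bcl6, Zeb2 and Prdm1. The members are the probe sets whose single symbol, in the array's annotation table, is one of these names. That gave 22 probe sets for 9 of the 10 genes, out of 45101 probe sets on the array, and Tcf7 was not analysed here because no probe set carried it as a single symbol in the table used. The CD8aa Tregs (titled 2D11, replicates 1, 2 and 4) are regulatory T cells with CD8 alpha homodimers and an alpha beta T cell receptor, and the title of the series names Qa-1 (a nonclassical MHC class I protein) as their restriction. The OT-1 T cells (titled OvacD8, replicates 1, 2 and 3) are labelled CD8aa+TCRab+ as well, and OT-1 is a transgenic receptor for an ovalbumin peptide. Both kinds were cultured with antigen, cells to present it and added IL-2, each sample is described as a T cell clone, and the antigens, the time since the last stimulation and the age and strain of the mice are not given in the sources used here. Each group may therefore be repeats of 1 line, nothing says that replicates were separate cultures, and the p-values then measure only the spread between these 6 arrays, which may be technical.

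A CD8 T cell that meets its antigen either becomes an effector cell, which kills and makes cytokines, or keeps the capacity to renew itself as a memory cell. TCF1 (from Tcf7), LEF1, BACH2, ID3, BCL6 and FOXO1, with the FOXO1 target KLF2, are known for holding naive and memory states. ID2, ZEB2 and BLIMP1 (from Prdm1) are known for driving the effector state. BACH2, BCL6, ZEB2 and BLIMP1 act largely as repressors, and BCL6 and BLIMP1 repress each other's genes. ID2 and ID3 lack a DNA-binding region and act by holding E proteins away from DNA.

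Every value below is a deposited log2 value centred on the median of its probe set over the 6 arrays, so it says how far an array stood from the others and not how bright the probe set was. The base of the log is not given in the sources used here and was taken as 2, the base that RMA uses, so fold values rest on it. A difference is the mean of the CD8aa Tregs minus the mean of the OT-1 cells on this log2 scale, where 1 is 2-fold, with the standard error (SE) of a limma fit over all 45037 probe sets that are not array controls (n = 3 per group). A probe set passed at a Benjamini-Hochberg adjusted p under 0.05 over that whole table.

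Of the 22 member probe sets, 5 passed, 4 lower and 1 higher in CD8aa Tregs. The 4 lower ones belong to Zeb2 (3) and Bach2 (1), and the higher one to Id2. That is 22.7% of the member probe sets, where 4.06% of all probe sets tested passed (2.05% lower and 2.00% higher). The table holds many probe sets that hardly varied: in 15511 of them (34.4%) the 6 arrays lay within less than 0.1, against 2 of the 22 members (9.09%). When only probe sets that spanned at least 0.1 were tested, 6 of 20 members passed, where 2962 of 29526 (10%) did in all. The groups did not overlap in 11 member probe sets, 10 lower and 1 higher in CD8aa Tregs, where 20.3% of all probe sets did not overlap (8.54% lower and 11.7% higher). With all probe sets of a gene averaged, 2 of the 9 genes passed, Zeb2 and Bach2, both lower, where 6.67% of 18193 genes passed (3.37% lower and 3.30% higher). The groups did not overlap in 6 of the 9 genes, 5 lower and 1 higher, where 23.3% of all genes did not (10.7% lower and 12.6% higher). The median difference of the 9 genes was -0.48, beside 0.01 over all genes. The genes that were lower thus include 1 known for memory, Bach2, and 1 known for effector function, Zeb2.

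**Figure D1:**
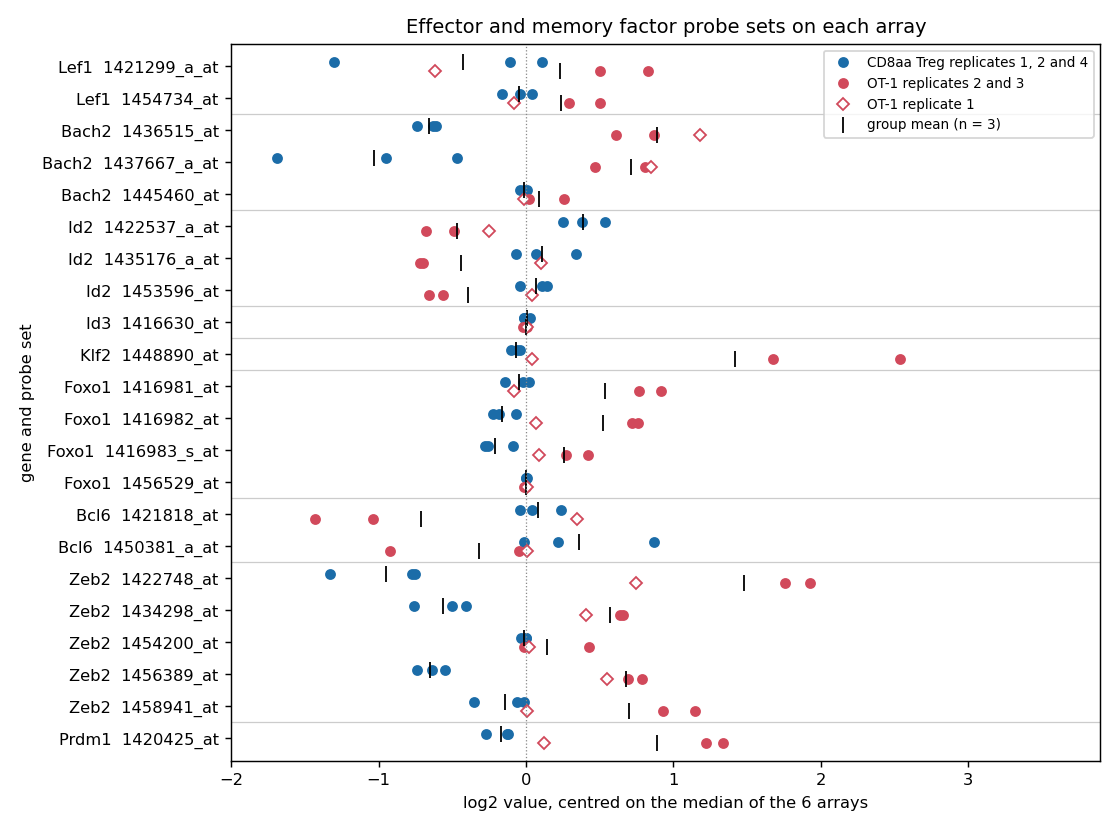
Centred log2 value of the 22 member probe sets (rows, grouped by gene) on each of the 6 arrays, with CD8aa Tregs in blue, OT-1 replicates 2 and 3 in filled red, OT-1 replicate 1 as an open diamond and a bar at each group mean of 3 arrays. For Bach2 1436515_at and for Zeb2 1456389_at the open diamond lies with the filled red points, while for Klf2 and Prdm1 it lies beside the blue ones.

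The OT-1 arrays were not alike, and several results turn on that. Over the 29526 probe sets that spanned at least 0.1, the correlation between OT-1 replicates 2 and 3 was 0.855, and that of OT-1 replicate 1 with each of them was 0.298 and 0.353 (across probe sets, which are not independent replicates). The poly-A spike-in controls, bacterial RNAs added to follow labelling, had a mean of -0.11 to 0.82 in CD8aa Tregs. It was 0.49 in OT-1 replicate 1, but -1.58 and -2.39 in OT-1 replicates 2 and 3. Some fits below hold a term for this split. With it, a difference is the CD8aa Treg mean minus OT-1 replicate 1 alone. Such a value restates where that array lay and is not a separate test of the spike-in level. OT-1 replicate 1 also stood at least 1 above every other array in 5 of 12 macrophage and dendritic cell markers, such as the lysozyme gene Lyz2 (2.70 against -2.82 to 0.59) and the Fc receptor gene Fcgr3 (3.35 against -0.12 to 0.05). Other markers of that list went the other way, with OT-1 replicate 1 below OT-1 replicates 2 and 3. These were Cd68 (0.48 against 3.34 and 3.44), Itgax (1.34 against 3.50 on both), H2-Ab1 (0.60 against 1.35 and 1.63) and Cd14 (0.20 against 0.66 and 0.75). The mean of those 12 markers was -0.32 to -0.22 on the CD8aa Treg arrays, 1.15 on OT-1 replicate 1, and 0.43 and 0.41 on OT-1 replicates 2 and 3. Of the 12, H2-Ab1 (-1.85 ± 0.29) and the integrin gene Itgax (-5.07 ± 0.78) passed at gene level, both lower in CD8aa Tregs and neither in more than 1 of the 6 fits with 1 array left out, and Adgre1 spanned 0.04. Of 4 measured NK cell markers, the adaptor genes Tyrobp and Fcer1g, which myeloid cells share, were at 3.33 and 1.80 on OT-1 replicate 1 and at most 0.11 elsewhere, while Ncr1 spanned 0.03. The 7 measured B cell markers moved little, with means of -0.03 to 0.02 per array, and 5 of them spanned under 0.1. Of 10 measured T cell markers, Cd8b1, the gene of the CD8 beta chain (-2.36 ± 0.11), and Cd247 (-0.90 ± 0.11; passing in 2 of those 6 fits) passed, both lower in CD8aa Tregs. Cd3e differed by 0.08 ± 0.09, but others moved more without passing, such as Cd3d (-0.73 ± 0.16) and Cd5 (0.58 ± 0.16). At an unadjusted p under 0.05 in the limma fit, 2 of the 10 were higher and 3 lower, beside 19.9% of all genes. Since levels were removed by the centring, these values show where markers differed between arrays and cannot show that a marker was absent. Zeb2, Id2, Bcl6, Klf2 and Prdm1 are also expressed by myeloid cells, and the part of such cells or of the spike-in split in the values below was not tested. Nor can fewer cells of one type be told apart from less RNA per cell in such bulk samples.

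The upstream 250 bases of the 3 genes with a probe set that passed are shown to give the sequence context of those genes (RefSeq, GRCm38.p6, 5′ to 3′ on the strand of the gene, ending just before the annotated start). No binding was measured in these samples. Capitals mark E boxes (CANNTG, the kind of site that E proteins bind), KLF boxes (CCACCC) and TCF sites (CTTTGA, as for TCF1 and LEF1), each on either strand. Zeb2 has several annotated starts, and the most upstream one is shown.
Bach2, chr4:32417185-32417434, + strand: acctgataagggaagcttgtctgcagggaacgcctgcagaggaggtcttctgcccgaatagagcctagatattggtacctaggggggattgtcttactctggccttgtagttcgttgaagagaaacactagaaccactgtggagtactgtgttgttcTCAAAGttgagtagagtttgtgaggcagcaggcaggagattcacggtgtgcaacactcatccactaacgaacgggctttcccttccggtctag
Zeb2, chr2:45117443-45117692, - strand: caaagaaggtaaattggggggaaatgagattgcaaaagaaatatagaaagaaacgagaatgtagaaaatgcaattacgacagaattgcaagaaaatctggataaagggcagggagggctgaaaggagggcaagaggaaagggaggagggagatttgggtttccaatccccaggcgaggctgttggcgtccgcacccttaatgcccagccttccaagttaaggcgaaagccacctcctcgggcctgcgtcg
Id2, chr12:25096093-25096342, - strand: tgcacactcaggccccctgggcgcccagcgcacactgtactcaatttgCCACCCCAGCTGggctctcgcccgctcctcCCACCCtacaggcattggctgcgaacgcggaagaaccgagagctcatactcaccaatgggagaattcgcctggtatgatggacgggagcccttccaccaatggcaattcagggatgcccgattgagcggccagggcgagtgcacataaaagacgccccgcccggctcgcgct
The Bach2 window held 1 TCF site, written there in its reverse form TCAAAG, the Id2 window 1 E box and 2 KLF boxes, and the Zeb2 window none of the 3 motifs; in the Id2 window a KLF box and the E box stand side by side without overlap. Forkhead sites (TGTTTAC) and AP-1 sites (TGAGTCA), searched in the same way, were in none of these 3 windows. Of the 4 Zeb2 windows, the most downstream one held 1 KLF box and 2 AP-1 sites, and the remaining ones held none of the 5 motifs. Over 32851 such windows of all genes, 66.2% held an E box, 28.1% a KLF box, 13.8% a TCF site, 4.46% an AP-1 site and 3.17% a forkhead site. A match is a description of the letters and not a site in use.

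Zeb2, a repressor that pushes CD8 T cells toward terminal effector cells, was lower in CD8aa Tregs on 3 of its 5 probe sets. On 1456389_at the CD8aa Tregs stood at -0.64, -0.55 and -0.74 (replicates 1, 2 and 4) and the OT-1 cells at 0.55, 0.79 and 0.69 (replicates 1, 2 and 3). On that probe set the arrays of each group lay close together, OT-1 replicate 1 included, and the groups were far apart. The difference was -1.33 ± 0.08 (SE), or 2.51-fold lower, with an adjusted p of 0.00289. On 1422748_at the CD8aa Tregs stood at -0.77, -1.33 and -0.75 and the OT-1 cells at 0.75, 1.76 and 1.93, a difference of -2.43 ± 0.38 or 5.39-fold (adjusted p = 0.0412). OT-1 replicate 1 lay about midway there, but above all CD8aa Tregs. On 1434298_at the values were -0.41, -0.76 and -0.50 against 0.41, 0.66 and 0.64, a difference of -1.13 ± 0.12 (adjusted p = 0.0153), with no overlap between the groups.

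The other Zeb2 probe sets did not pass. 1458941_at gave -0.35, -0.06 and -0.01 in CD8aa Tregs and 0.01, 1.15 and 0.93 in OT-1 cells, a difference of -0.84 ± 0.33 (adjusted p = 0.326). There OT-1 replicate 1 lay next to the CD8aa Tregs, and only the other OT-1 arrays were high. 1454200_at spanned 0.45, with OT-1 replicate 3 alone raised at 0.43, and differed by -0.15 ± 0.13. The mean over the 5 probe sets was lower by -1.17 ± 0.17 (adjusted p = 0.0245). Of the 3 probe sets that passed, 1456389_at passed in all 6 fits with 1 array left out (highest adjusted p = 0.0235), 1434298_at in 3 of them (not without CD8aa Treg replicate 4, 0.061, or OT-1 replicates 2, 0.0795, and 3, 0.0693) and 1422748_at in the fit without OT-1 replicate 1 alone (0.117 to 0.154 in the other 5; 0.0546 with the median of each array subtracted). With a term for the spike-in split 1422748_at (-1.70, 0.0647) and 1434298_at (-0.97, 0.0582) did not pass, and 1456389_at did. The gene mean likewise passed without OT-1 replicate 1 alone (0.0763 to 0.101 in the other 5), and with the spike-in term it differed by -0.81. With the replicate number as a block none of these passed (adjusted p = 0.0771, 0.183 and 0.219 for 1456389_at, 1434298_at and 1422748_at, and 0.145 for the gene mean). Only replicate numbers 1 and 2 occur in both groups, so the block fit compares the groups through those arrays alone. It leaves little to estimate the spread, and not passing in it says little.

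Bach2, which holds back effector genes and is needed for memory CD8 T cells and for regulatory T cells, was lower in CD8aa Tregs on 1 of its 3 probe sets. On 1436515_at the CD8aa Tregs stood at -0.61, -0.63 and -0.74 and the OT-1 cells at 1.18, 0.87 and 0.61, a difference of -1.54 ± 0.15 or 2.92-fold (adjusted p = 0.0121). OT-1 replicate 1 was the highest array there, so Bach2 did not share the pattern in which that array sits near the CD8aa Tregs. 1437667_a_at showed a difference of similar size but did not pass: -1.69, -0.47 and -0.95 against 0.85, 0.81 and 0.47, or -1.75 ± 0.34 (adjusted p = 0.0722). The groups did not overlap on it, and the spread lay mainly among the CD8aa Tregs. 1445460_at spanned 0.30, with OT-1 replicate 2 alone raised at 0.26, and differed by -0.11 ± 0.08. The gene mean was lower by -1.13 ± 0.14 (adjusted p = 0.0156), and with a term for the spike-in split by -1.24. 1436515_at did not pass without CD8aa Treg replicates 1 (0.0569), 2 (0.0607) or 4 (0.0567), or without OT-1 replicate 2 (0.0692), and the gene mean did not without CD8aa Treg replicate 4 (0.0629) or OT-1 replicate 2 (0.0758); with the replicate block the adjusted p was 0.0781 and 0.0852. The probe set of the widest span, taken for the gene, did not pass either (0.0588).

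Id2, which keeps E proteins from their targets and supports effector CD8 and innate-like lymphocytes, was higher in CD8aa Tregs on 1 of its 3 probe sets. On 1422537_a_at the CD8aa Tregs stood at 0.54, 0.38 and 0.25 and the OT-1 cells at -0.25, -0.49 and -0.68, with no overlap. The difference was 0.86 ± 0.14, or 1.82-fold higher (adjusted p = 0.0435). The other probe sets differed in the same direction but did not pass, and OT-1 replicate 1 stood among the CD8aa Tregs on both. 1435176_a_at gave 0.07, -0.07 and 0.34 against 0.10, -0.70 and -0.72, a difference of 0.55 ± 0.27 (adjusted p = 0.431). 1453596_at gave 0.14, -0.04 and 0.11 against 0.04, -0.56 and -0.66, a difference of 0.46 ± 0.20 (adjusted p = 0.379). With a term for the spike-in split they differed by 0.01 and 0.03. The gene mean differed by 0.63 ± 0.19 and did not pass (adjusted p = 0.148). The probe set of the widest span, 1422537_a_at, passed when taken for the gene (0.0358). The call on 1422537_a_at is a near one: it passed without OT-1 replicate 1 and in none of the other 5 fits with 1 array left out (0.0969 to 0.162), nor with arrays quantile-normalized again (0.0676), with the median of each array subtracted (0.0546), with robust variances (0.0525), with the spike-in term (0.64, 0.125) or with the replicate block (0.096).

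Id3, the counterpart of Id2 in memory precursors, spanned 0.05 on its 1 probe set. Its values ran from -0.02 to 0.03 over the 6 arrays, and the difference was 0.01 with a 95% interval of -0.04 to 0.06. A probe set at background would look the same, so equal expression is not shown.

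**Figure D2:**
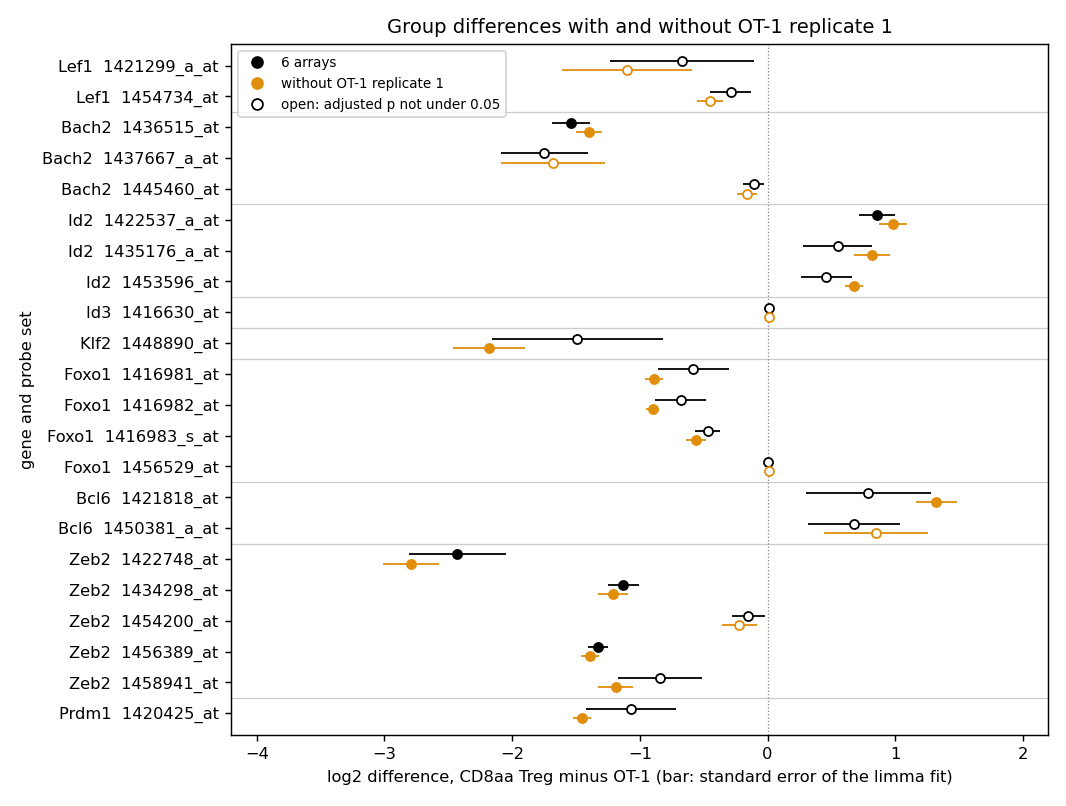
Log2 difference between the CD8aa Treg and OT-1 means for each member probe set, over all 6 arrays (black) and without OT-1 replicate 1 (orange); bars are standard errors of the fit and open points did not pass. There are 5 points filled in black and 14 in orange, and the Klf2 point moves from -1.49 to -2.18.

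Klf2, which keeps T cells quiescent and drives receptor genes of T cell traffic, showed a gap within the OT-1 group. Its 1 probe set stood at -0.06, -0.10 and -0.04 in CD8aa Tregs and at 0.04, 2.54 and 1.68 in OT-1 cells. OT-1 replicates 2 and 3 were thus high and OT-1 replicate 1 was level with the CD8aa Tregs. A probe set at background on those level arrays would look the same, so equal expression on them is not shown. The difference of -1.49 ± 0.67 did not pass (adjusted p = 0.390). Over the other 5 arrays, with OT-1 replicate 1 left out, it was -2.18 ± 0.28 and passed (0.0235). Against OT-1 replicate 1 alone, as with a term for the spike-in split, it was -0.10, which restates the position of that array.

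Foxo1, the factor that maintains Klf2, Il7r and Tcf7 in resting T cells, had 4 probe sets, of which 0 passed in the limma fit (2 at an unadjusted p under 0.05, both lower). Over all probe sets 16.0% had an unadjusted p under 0.05, 6.80% lower and 9.24% higher. 1416982_at stood at -0.22, -0.18 and -0.07 against 0.07, 0.72 and 0.76, a difference of -0.68 ± 0.20 (adjusted p = 0.201). 1416981_at stood at -0.02, 0.02 and -0.14 against -0.08, 0.92 and 0.77, a difference of -0.58 ± 0.28 (adjusted p = 0.434). On both, OT-1 replicates 2 and 3 were high and OT-1 replicate 1 was near the CD8aa Tregs. 1416983_s_at, whose suffix marks probes that may match other transcripts, gave -0.28, -0.26 and -0.09 against 0.09, 0.27 and 0.42, a difference of -0.47 ± 0.10 (adjusted p = 0.1). The remaining probe set, 1456529_at, spanned 0.02. Without OT-1 replicate 1 the first 3 of these passed, at -0.90 (0.00456), -0.89 (0.00888) and -0.56 (0.0344). Against OT-1 replicate 1 alone, as with a term for the spike-in split, their differences were -0.23, 0.03 and -0.29.

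Prdm1 encodes BLIMP1, the repressor of terminal effector cells and plasma cells. Its 1 probe set stood at -0.12, -0.27 and -0.13 in CD8aa Tregs and at 0.12, 1.22 and 1.34 in OT-1 cells. The groups did not overlap, but OT-1 replicate 1 lay nearer to the CD8aa Tregs than to the other OT-1 arrays. The difference of -1.07 ± 0.35 did not pass (adjusted p = 0.241). With OT-1 replicate 1 left out it was -1.45 ± 0.07 and passed (0.00265). Against OT-1 replicate 1 alone, as with a term for the spike-in split, it was -0.29.

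Bcl6, the repressor that opposes BLIMP1, ran the other way in OT-1 replicates 2 and 3. 1421818_at stood at -0.04, 0.24 and 0.04 in CD8aa Tregs and at 0.35, -1.04 and -1.43 in OT-1 cells, a difference of 0.79 ± 0.49 (adjusted p = 0.598). OT-1 replicate 1 was the highest of the 6 arrays there, and without it the difference was 1.32 ± 0.16 and passed (0.0196). Against that array alone, as with a term for the spike-in split, the difference was -0.27. 1450381_a_at stood at 0.87, 0.22 and -0.01 against 0.01, -0.92 and -0.05, a difference of 0.68 ± 0.36, and passed neither with that array (0.493) nor without it (0.397); the spike-in term gave 0.35 (1). On OT-1 replicates 2 and 3 the 1 Prdm1 probe set was thus above every CD8aa Treg array, and Bcl6 1421818_at below every one. On Bcl6 1450381_a_at OT-1 replicate 2 was well below them (-0.92). OT-1 replicate 3 (-0.05) was there nearly level with CD8aa Treg replicate 4 (-0.01).

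Lef1, the partner of TCF1 in naive and memory cells, did not pass on either probe set, with or without OT-1 replicate 1. 1421299_a_at stood at -0.11, 0.11 and -1.30 in CD8aa Tregs and at -0.62, 0.83 and 0.50 in OT-1 cells, a difference of -0.67 ± 0.56 (adjusted p = 0.750; 95% interval -2.12 to 0.79). CD8aa Treg replicate 4 was the lowest array and the groups overlapped. 1454734_at stood at 0.04, -0.04 and -0.16 against -0.08, 0.50 and 0.29, a difference of -0.29 ± 0.16 (adjusted p = 0.533). The spike-in term turned the sign on both, to 0.19 and 0.03.

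The position of OT-1 replicate 1 varied from gene to gene. On the 17 member probe sets whose CD8aa Treg mean and whose mean of OT-1 replicates 2 and 3 lay at least 0.5 apart, that array was placed on a scale from 0% at the first mean to 100% at the second. It stood at 131.0% and 112.5% for the Bach2 probe sets 1436515_at and 1437667_a_at, and at 86.4%, 80.1% and 60.8% for the Zeb2 probe sets that passed. It stood at 4.8% for Klf2, 20.1% for Prdm1 and -20.3% for Bcl6 1421818_at. In all, it lay nearer to the CD8aa Tregs on 10 of the 17 (58.8%), with a median position of 26.1%. Over 7768 probe sets of the table chosen in the same way, it lay nearer to the CD8aa Tregs on 50.5%, with a median of 49.5%. The members' share is thus near that of the table, while their median is lower. Several of the 17 probe sets belong to the same gene, so they are not independent. Without OT-1 replicate 1, 14 of the 22 member probe sets passed (63.6%), 10 lower and 4 higher, and these held all 5 that passed over the 6 arrays; 10.6% of all probe sets passed in that fit (5.80% lower and 4.80% higher). At gene level 7 of 9 passed, 5 lower (Zeb2, Bach2, Klf2, Foxo1 and Prdm1) and 2 higher (Id2 and Bcl6), against 17.2% of all genes (9.40% lower and 7.80% higher). Among these 5 arrays the split of the spike-in controls falls exactly between the groups, and the 2 cannot be told apart. When the fit over the 6 arrays held a term for the split, Bach2 1436515_at differed by -1.83 and Zeb2 1456389_at by -1.20. Klf2 differed there by -0.10 and Prdm1 by -0.29. The groups are then compared through OT-1 replicate 1 and the 3 CD8aa Treg arrays, and that single array is assumed to vary like the rest.

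**Figure D3:**
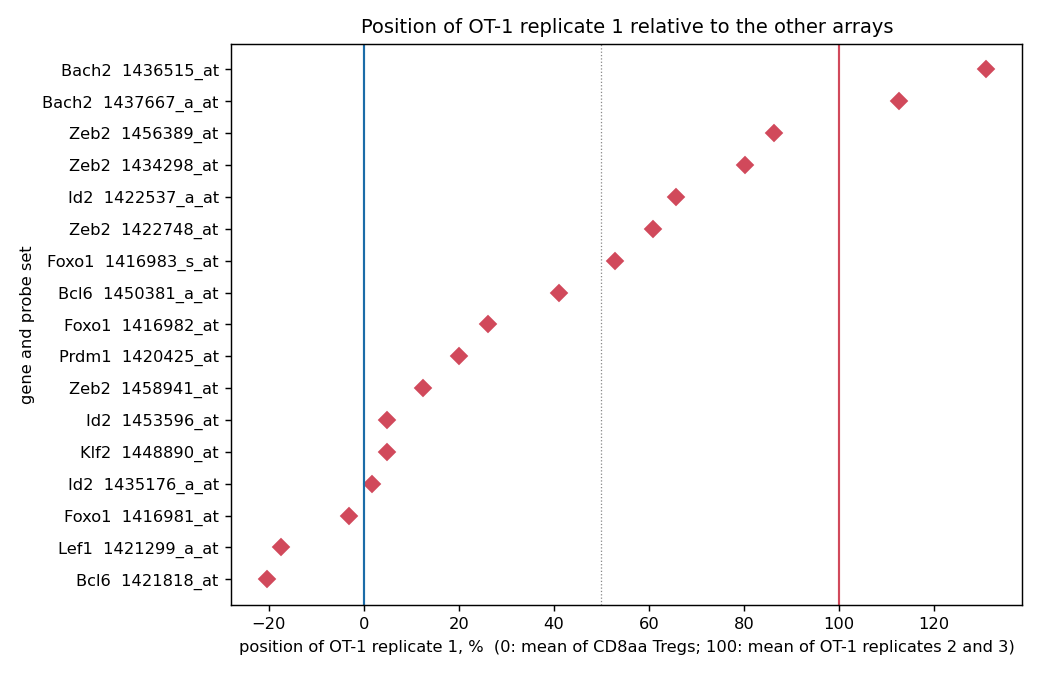
Position of OT-1 replicate 1 for 17 member probe sets, in percent of the way from the CD8aa Treg mean (0, blue line) to the mean of OT-1 replicates 2 and 3 (100, red line). The Bach2 probe sets lie beyond 100 and the Klf2 probe set lies at 4.8.

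Genes around these factors were counted in 7 lists, at gene level, beside the 6.67% of all genes that passed. Of 90 measured genes in the lists, 2 were higher and 11 lower in CD8aa Tregs (14.4%). This balance changed with the fit: with a term for the spike-in split 10 were higher and 9 lower, while 514 of all genes were higher and 847 lower. Some genes stand in more than 1 list. Beside the passing genes, a few with a known tie to a member are given below, and these were picked after their values were seen.

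Among E proteins, the targets of ID2 and ID3, and other Id genes, 1 of 5 passed. Tcf4, which encodes the E protein E2-2, was lower by -0.42 ± 0.02 (adjusted p = 0.0017), with -0.18, -0.17 and -0.15 in CD8aa Tregs against 0.28, 0.27 and 0.21 in OT-1 cells, as the mean of 6 probe sets from -0.99 to 0.01. Tcf3 and Tcf12, the other E protein genes, differed by 0.24 ± 0.21 and -0.09 ± 0.04 and did not pass, and Id1 and Id4 spanned under 0.1. Of 14 relatives of the members, Foxo3 was lower by -0.35 ± 0.06 (adjusted p = 0.0401; probe sets from -0.63 to 0.01) and the other 13 did not pass. Foxo3 passed without OT-1 replicate 1 and in none of the other 5 fits with 1 array left out (0.0816 to 0.144), nor with the spike-in term (0.128). The Zeb2 relative Zeb1, known for supporting memory CD8 T cells, differed by 0.11 ± 0.06 and did not pass.

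Of 5 measured receptor genes that KLF2 and FOXO1 control, 1 passed. S1pr1 encodes the sphingosine phosphate receptor that guides T cells out of lymph nodes and is a direct KLF2 target. It stood at -1.69, -1.32 and -1.78 in CD8aa Tregs and at 1.32, 2.26 and 2.40 in OT-1 cells, a difference of -3.59 ± 0.33 (adjusted p = 0.00654). On OT-1 replicate 1, S1pr1 was thus well above the CD8aa Tregs while the Klf2 value was level with them, though equal Klf2 expression is not shown. Il7r, the IL-7 receptor gene and a FOXO1 target, stood at 0.15, 0.36 and 0.31 against -0.15, -0.95 and -0.97, and did not pass (0.96 ± 0.25, adjusted p = 0.109). Il7r was thus lowest on the OT-1 arrays where Foxo1 was highest, and without OT-1 replicate 1 it passed at 1.23 (0.00228), but not with the spike-in term (0.42, 0.0918). Ccr7, S1pr4 and Itgb7 differed by 0.17 ± 0.15, 0.06 ± 0.08 and 0.65 ± 0.69 and did not pass.

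Of 12 measured memory and naive T cell genes, 1 was higher and 2 were lower. Slamf6, a receptor that marks TCF1-positive cells, was higher by 1.80 ± 0.10 (adjusted p = 0.00168; probe sets from -0.03 to 2.92), with 1.02, 0.76 and 0.80 against -1.04, -0.99 and -0.77. Satb1, a chromatin organiser of T cells, was lower by -0.79 ± 0.06 (adjusted p = 0.00329), with probe sets from -1.35 to 0.07. S1pr1 was lower too. The median of this list was 0.01, the same as over all genes.

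Of 14 measured effector genes, 0 were higher and 4 were lower, with a median of -0.99 (limma; 1 higher and 5 lower at an unadjusted p under 0.05, as were 10.8% and 9.09% of all genes, 19.9% together). Without OT-1 replicate 1, 0 were higher and 9 lower at the adjusted threshold, as were 7.80% and 9.40% of all genes. With a term for the spike-in split, which compares the CD8aa Tregs with OT-1 replicate 1 alone, the median was 0.06. The interferon gamma gene Ifng then differed by 1.17 and the galectin genes Lgals1 and Lgals3 by 0.34 and 1.06. On these 3, OT-1 replicate 1 (-1.20, -0.35 and -1.09) lay below OT-1 replicates 2 (2.30, 0.30 and 0.02) and 3 (2.28, 0.25 and 0.05). Of the 4 lower genes, the largest differences over the 6 arrays were those of the granzyme genes Gzma (-10.85 ± 0.38) and Gzmk (-8.65 ± 0.58). Il2ra (-2.89 ± 0.14), which encodes CD25, and the chemokine gene Ccl5 (-0.88 ± 0.07) followed. With the spike-in term these 4 differed by -10.01, -7.37, -2.79 and -0.74. The perforin gene Prf1 did not pass at -1.19 ± 0.29 (adjusted p = 0.0939), and its 2 probe sets stood at -2.39 and 0. Klrg1 and Cx3cr1, surface markers of ZEB2-dependent terminal effector cells, differed by -0.28 ± 0.37 and 0.05 ± 0.08 and did not pass.

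Of 31 other fate factors, 1 was higher and 4 were lower. Without OT-1 replicate 1 these counts were 3 and 11, beside 7.80% higher and 9.40% lower of all genes. Ets1, a factor of T cell maturation, was higher by 1.34 ± 0.14 (adjusted p = 0.0106; probe sets from 0.32 to 2.68), but not without CD8aa Treg replicates 1 (0.0539) or 2 (0.0514) or OT-1 replicate 2 (0.0591). Tbx21 encodes T-bet, which induces Zeb2 in effector cells, and was lower by -0.92 ± 0.16 (adjusted p = 0.0384), with -0.36, -0.25 and -0.63 against 0.25, 0.69 and 0.59. Tbx21 passed without OT-1 replicate 1 and in none of the other 5 fits with 1 array left out (0.0896 to 0.133), nor with the spike-in term (0.121). Satb1, Ikzf3 (Aiolos, -0.77 ± 0.10, probe sets from -1.38 to 0.05) and Nfatc1 (-0.19 ± 0.03, probe sets from -0.39 to -0.06) were the other lower ones. Ikzf3 did not pass without any 1 of the CD8aa Treg arrays (0.0559 to 0.074) or with the spike-in term (0.0695), nor Nfatc1 without CD8aa Treg replicates 1 (0.0949) or 4 (0.074) or OT-1 replicate 3 (0.088). Of 13 measured partners of BLIMP1, BCL6 and BACH2, 0 passed in either direction in the limma fit. At an unadjusted p under 0.05, 1 was higher and 2 lower, or 23.1%, beside 19.9% of all genes. Without OT-1 replicate 1, 1 higher and 1 lower passed, which is near the 17.2% of all genes in that fit.

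**Figure D4:**
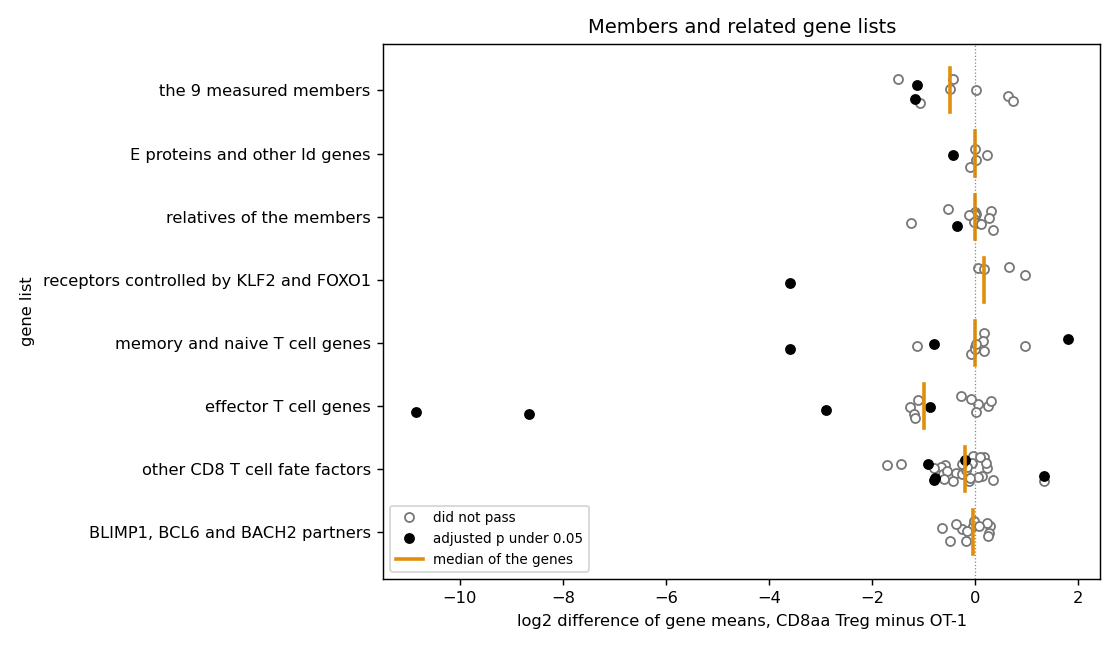
Log2 difference between CD8aa Treg and OT-1 gene means for the 9 measured members and for the genes of 7 related lists (rows); filled points passed, open ones did not, and the orange bar is the median. The effector list reaches furthest to the left, to -10.85 for Gzma, and its median is -0.99.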

How the data were processed

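RNA from 6 mouse T cell samples, 3 per group, was amplified with an Ovation kit, labelled with biotin and measured on arrays, per the labels' protocols. The authors' deposited log2 values were made with RMA, per the submitters' processing notes, which state neither the version nor the log base. The deposited values are centred: each probe set has a median within 5e-07 of 0 over the 6 arrays. The sources used here do not mention this centring. It removes levels and keeps differences, and probe sets near background understate change. The number of arrays limits the precision.

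Groups and replicate numbers came from sample titles. Of 45101 probe sets, 64 array controls were left out. The annotation table gave 1 symbol for 34945 probe sets, several for 932 and none for 9160; RefSeq (GRCm38.p6) held 34741 of the 34945 by gene identifier and changed 0 symbols. Promoter windows of all 10 genes came from RefSeq by symbol. Groups were compared per probe set, and per gene as the mean of its probe sets, with the R package limma (version 3.58.1, R 4.3.3) by lmFit and eBayes. Tests were two-sided, with Benjamini-Hochberg adjustment over the whole table. The prior degrees of freedom of the probe set fit were 0.87. Tested on simulated data, the probe set fit called 44% of 100 changes of 1 and 62% of 100 changes of 2, with 9 false calls among the rest of 45037. The rule named all members, up to 3 passing genes per list by size, and the 3 genes nearest to the widest member probe set. Other list genes, markers and passing genes were named after their values were seen. The members, lists and rules were chosen with earlier results of these data known. Alternatives left out each array or changed the normalization, filter, variance, weights or terms of the fit.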

Additional observations from a re-analysis of the deposited data

How the results depend on the processing

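Over the 6 arrays 5 member probe sets, 2 member genes, 1827 of all probe sets and 13 genes of the lists passed. Leaving out 1 array gave 1 to 14 member probe sets, 0 to 7 member genes, 811 to 4773 of all probe sets and 8 to 35 list genes; every highest count came without OT-1 replicate 1. With the replicate number as a block, 0 member probe sets, 0 member genes, 229 of all probe sets and 5 list genes passed (limma; 8 member probe sets, or 36.4%, and 3 member genes, or 33.3%, at an unadjusted p under 0.05, beside 14.1% of all probe sets and 15.7% of all genes). Only numbers 1 and 2 occur in both groups, and deviations of same-numbered arrays correlated at -0.03 and 0.21, so the numbers were not taken to pair the arrays. The block fit compares the groups through those arrays alone, so its low counts say little about the members. With array weights, whose estimation stopped before it converged, 18, 7, 17219 and 55 passed. Subtracting each array's median left 3 member probe sets, where 1555 of all probe sets passed. A term for the spike-in split compares the CD8aa Tregs with OT-1 replicate 1 alone, so a count of members under it says little. Testing only features that spanned at least 0.1 gave 2962 of all probe sets and 20 list genes. Without that filter, asking also for a size of at least 1 left 1044 of the 1827 and 6 of the 13. Quantile normalization, robust variances, leaving out probe sets by suffix, and, where they apply, testing probe sets with 1 symbol or the widest probe set moved none of these 4 counts by over 1.5 times. With the widest probe set, though, the 2 member genes that passed in the limma fit were Zeb2, lower, and Id2, higher (0.86, adjusted p = 0.0358). Bach2 did not pass there (0.0588). With quantile normalization 676 of all probe sets were higher and 1112 lower, against 902 and 925; with the spike-in term 822 and 1539. Of the list genes 10 were higher and 9 lower with that term, against 2 and 11. The gene fit already uses only probe sets with 1 symbol, so that setting was not run on it.

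Signs turned only on member values that had not passed. With a term for the spike-in split these were Lef1 1421299_a_at (0.19), 1454734_at (0.03) and the gene mean (0.11), Foxo1 1416981_at (0.03) and 1456529_at (-0.00988), and Bcl6 1421818_at (-0.27). Id3 turned without CD8aa Treg replicate 2 (-0.0032) and OT-1 replicate 2 (-0.0019), with array weights (-0.01) and with quantile normalization (-0.00609), on its probe set and as the gene; leaving out 1 array ranged from -0.0032 to 0.01. Foxo1 1456529_at turned without CD8aa Treg replicate 2 (-0.00149) and OT-1 replicate 2 (-0.00497; range to 0.0062), with array weights (-0.000973), quantile normalization (-0.00877) and median subtraction (-0.0059). The causes were not tested.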

Other observations

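The member probe set with the widest span was Zeb2 1422748_at (3.27 over the 6 arrays). Among 34940 probe sets of other genes with a single symbol, the 3 genes nearest to it by the mean absolute difference of centred log2 values over the 6 arrays were Gyg (0.14), Kcna4 (0.18) and Stard10 (0.19). Gyg encodes glycogenin, the primer of glycogen, Kcna4 a voltage-gated potassium channel and Stard10 a lipid transfer protein. Gyg stood at -0.76, -0.93 and -0.87 in CD8aa Tregs and at 0.76, 1.91 and 2.04 in OT-1 cells. Kcna4 stood at -0.66, -1.54 and -0.84 against 0.66, 1.46 and 1.62, and Stard10 at -0.57, -1.28 and -0.56 against 0.56, 2.11 and 1.80. In all 3, as in Zeb2 1422748_at, OT-1 replicate 1 lay between the CD8aa Tregs and OT-1 replicates 2 and 3. Over so few arrays many probe sets can share a pattern, and nothing on shared function or control follows from it.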
